A study of Homo sapiens with 9 samples.

Results

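The transcripts of the human mitochondrial genome were compared across 9 RNA-seq libraries from a study of KDM4C, a lysine demethylase of histone H3, in cells labelled as the hepatocellular carcinoma line Huh7. Members were the listed genes whose symbol begins with MT and a hyphen, which gave 15 of 32906 listed genes: 13 protein-coding genes and both ribosomal RNAs. The 13 are called messenger RNAs here, though MT-ATP8 shares a messenger RNA with MT-ATP6, and MT-ND4L with MT-ND4. The 22 mitochondrial transfer RNA genes of the annotation were not analysed here. The libraries formed 3 groups of 3, transfected for 48 h with a scrambled siRNA (Scramble) or with 1 of 2 siRNAs against KDM4C (Si-KDM4C#1 and Si-KDM4C#2), and the question for these genes was whether their levels differed between the groups. All 9 came from the same labelled line, and nothing in the labels says whether the 3 libraries of a group came from separate cultures. The study's methods say that its experiments were repeated independently, without naming these libraries, so p-values measure the spread between these libraries, which may be technical.

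Mitochondria keep a small circular genome of their own. It is transcribed from both strands into long precursors by the polymerase POLRMT with TFAM and TFB2M, and the precursors are cut at the transfer RNAs that lie between most of the other genes. The messenger RNAs encode core subunits of respiratory complexes I, III, IV and V, the ribosomal RNAs build the mitochondrial ribosome, and every other subunit of these complexes comes from the nucleus. Since neighbouring genes leave on 1 precursor, their unequal steady levels are ordinarily attributed to processing and decay. Hepatocytes are rich in mitochondria.

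Values were FPKM, fragments scaled to the length of the gene and the depth of the library, as the authors deposited them. Whole fragments could be read back from them for 97.5% of genes and for all 15 members, and gave 14597503 to 18058557 fragments per library. KDM4C itself stood at 4.69 ± 0.167 FPKM (SD, n = 3) in Scramble, 1.14 ± 0.0395 under Si-KDM4C#1 and 0.287 ± 0.0535 under Si-KDM4C#2. Huh7 cells are known for making liver plasma proteins, but of 16 hepatocyte markers the 13 listed were all near 0, the highest group mean being 0.116 FPKM for HNF4A in Scramble, and AFP was at 0.00677 FPKM in Scramble and at 0 in both knockdowns. The name Huh7 is therefore given as the label has it, and the markers of a hepatocyte were absent.

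The ends of the 13 protein-coding genes are shown first, since the way a reading frame ends is one property along which the members are grouped further on. Those of MT-ATP8 and MT-ND4L lie inside a messenger RNA shared with the next gene. Coordinates are 1-based on GRCh38, genes follow GENCODE release 29, and each line gives the last 18 bases 5′ to 3′ with the stop bases in capitals. In 7 genes the stop is complete, with MT-CO1 ending on AGA and MT-ND6 on AGG in place of TAA or TAG. The other 6 end on T or TA alone, which becomes TAA only once a poly(A) tail is added.
MT-CO1, chrM:7428-7445 (+): gtatacataaaatctAGA
MT-CO2, chrM:8252-8269 (+): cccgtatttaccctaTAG
MT-ATP8, chrM:8555-8572 (+): ttgcccccacaatccTAG
MT-ATP6, chrM:9190-9207 (+): ctgcacgacaacacaTAA
MT-ND4L, chrM:10749-10766 (+): aacctactccaatgcTAA
MT-ND5, chrM:14131-14148 (+): ctactcctaatcacaTAA
MT-ND6, chrM:14149-14166 (-): attgctcgggggaatAGG
MT-ND1, chrM:4245-4262 (+): cattccccctcaaaccTA
MT-ND2, chrM:5494-5511 (+): ttatactaataatcttaT
MT-CO3, chrM:9973-9990 (+): tctattgatgagggtctT
MT-ND3, chrM:10387-10404 (+): gattagactgaaccgaaT
MT-ND4, chrM:12120-12137 (+): ttaccgggttttcctctT
MT-CYB, chrM:15870-15887 (+): aaatactcaaatgggccT

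MT-ATP8, the shortest member at 207 bases and 39.6% GC, is printed whole because it carried the largest difference and shares sequence with its neighbour. Its last 46 bases, in capitals, are also the start of MT-ATP6 (22.2% of MT-ATP8), and how fragments over shared bases were counted is not given in the sources used here.
MT-ATP8, chrM:8366-8572 (+): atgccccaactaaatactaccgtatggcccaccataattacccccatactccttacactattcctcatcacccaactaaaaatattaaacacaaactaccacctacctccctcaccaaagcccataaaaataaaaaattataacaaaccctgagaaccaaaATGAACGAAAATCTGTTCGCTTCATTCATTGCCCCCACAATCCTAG
Among the other members MT-ND4L and MT-ND4 share 7 bases and MT-ATP6 and MT-CO3 share 1. MT-ND6 is the member on the light strand and runs against MT-ND5, which ends on the base next to it. Whether counting used strand is not given either, so antisense RNA of the heavy strand and MT-ND6 cannot be told apart.

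The members were the most abundant transcripts of these libraries. Ranked by mean FPKM over all 9 libraries, they took the first 13 places of 32906, led by MT-RNR2 at 10749 FPKM, MT-CO2 at 9869 FPKM and MT-CO1 at 9620.3 FPKM. In all, 14 of the 15 were among the top 20, with MT-ND6 at rank 16, behind the nuclear FTL and EEF1A1. MT-ATP8 stood apart at rank 200 with 141 FPKM. It rested on 202 to 763 fragments per library, against at least 8590 for every other member, so its value was the least precise.

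**Figure D1:**
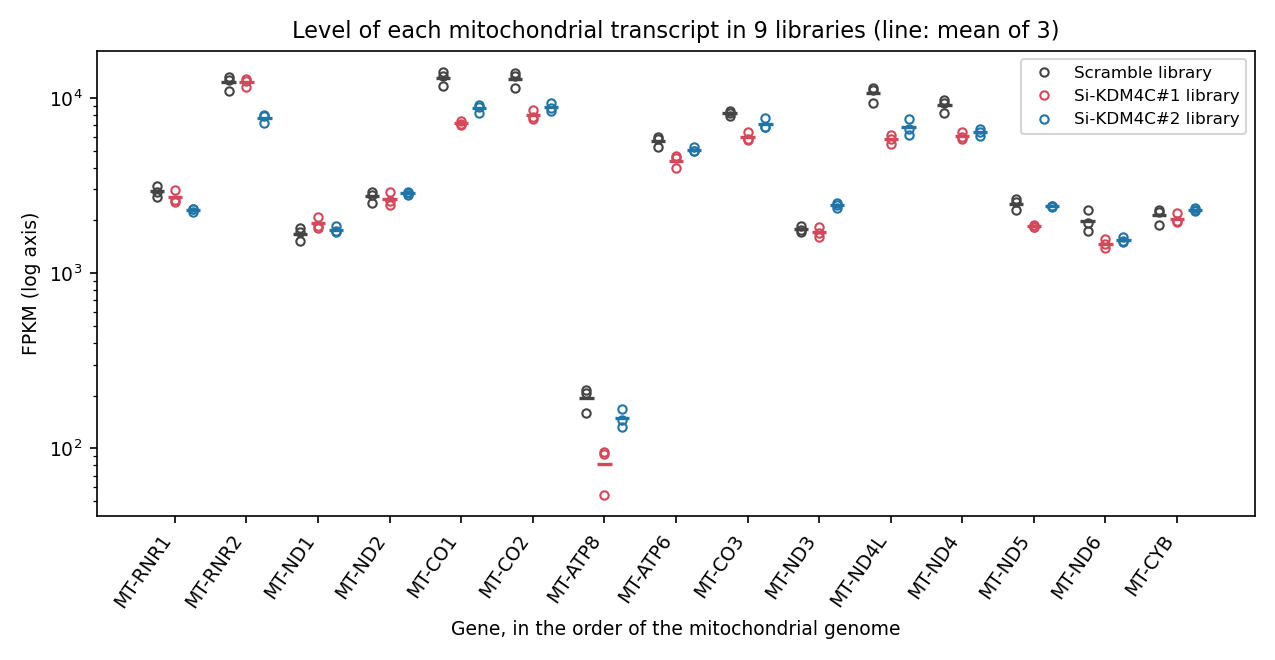
FPKM of the 15 mitochondrial genes (log axis) in each of 9 libraries, with genes in genome order, circles for libraries and lines for the mean of 3. MT-ATP8 lies between 54.0 and 215 FPKM, and all other genes lie at 1391 FPKM or above.

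The members' share of the FPKM of all listed genes was lower with both siRNAs. Summed over the 15 genes, it was 26.6%, 29.5% and 30.1% of all FPKM in the Scramble libraries, 21.3%, 20.9% and 22.2% under Si-KDM4C#1 and 21.7%, 22.2% and 23.2% under Si-KDM4C#2. Every Scramble library was above every knockdown library, and the knockdown groups overlapped each other. The group means were 28.7% ± 1.90 (SD, n = 3), 21.5% ± 0.696 and 22.4% ± 0.786. As a share of fragments, where long genes weigh more, the means were 8.98% ± 0.765, 6.76% ± 0.311 and 6.68% ± 0.241. The 95% Wilson intervals of these fragment shares reached at most 0.0142 percentage points to either side and cover counting error only, so the spread between libraries set the error. The share was not tested, since it is a score over chosen genes. FPKM is itself a share of each library, and in bulk RNA fewer mitochondrial transcripts per cell, more nuclear RNA and a different mix of cells cannot be told apart.

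Messenger and ribosomal RNAs differed between the 2 knockdowns. The 13 messenger RNAs held 23.7% ± 1.57 of all FPKM in Scramble, 16.4% ± 0.500 under Si-KDM4C#1 and 19.0% ± 0.691 under Si-KDM4C#2. The ribosomal RNAs held 4.98% ± 0.333, 5.04% ± 0.241 and 3.37% ± 0.115. Within the mitochondrial FPKM, the ribosomal share was 17.3%, 17.4% and 17.3% in the Scramble libraries, 24.0%, 22.8% and 23.5% under Si-KDM4C#1 and 14.9%, 15.4% and 14.8% under Si-KDM4C#2. The 3 groups did not overlap, and the knockdowns lay on opposite sides of Scramble. This ratio lies within a library and does not move when all its genes are scaled by 1 factor. Methods that shift genes against each other, used further on, can move it.

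**Figure D2:**
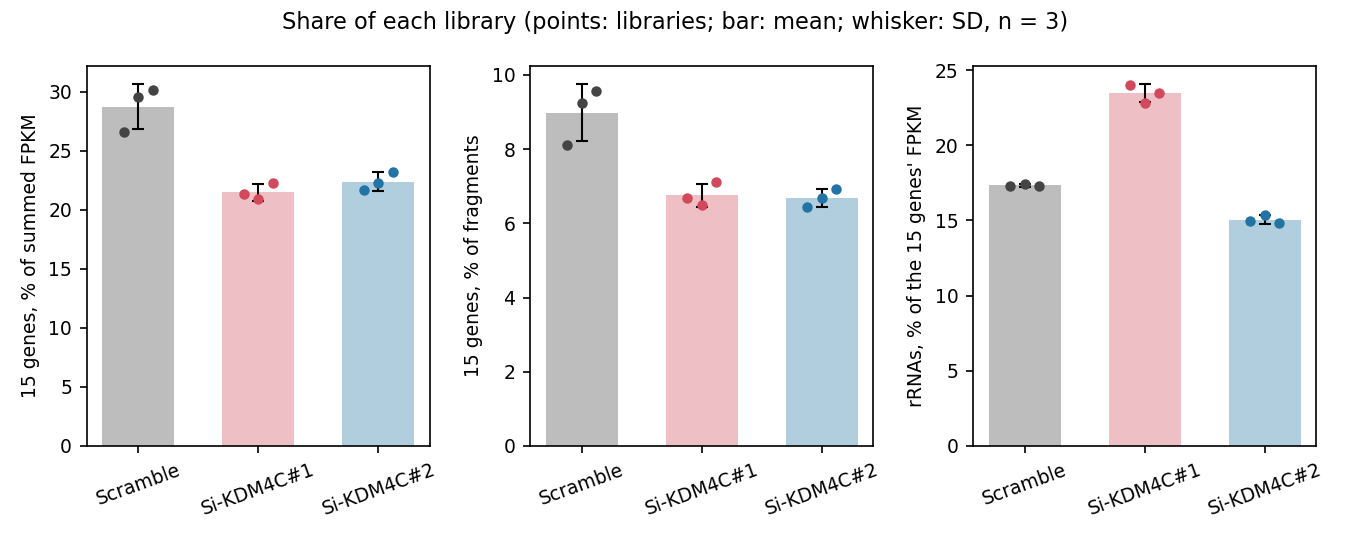
Percent of each library held by the 15 genes, by summed FPKM and by fragments, and percent of the 15 genes' FPKM held by the ribosomal RNAs, with points for libraries, bars for means and whiskers for SD (n = 3). Both knockdowns lie below Scramble on the left and middle, and on opposite sides of it on the right (17.3%, 23.5% and 15.1%).

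Tested gene by gene, most of the members that differed from Scramble were lower. Fold changes were fitted with limma on log2(FPKM + 1) over the 14363 genes with a group mean of at least 1 FPKM, and a gene was called at a Benjamini-Hochberg adjusted p below 0.05. Under Si-KDM4C#1, 9 of 15 members fell (60.0%, against 33.9% of all genes tested), 1 rose (6.67%, against 31.7%) and 5 were not called. Under Si-KDM4C#2, 8 fell (53.3%, against 25.0%), 1 rose (6.67%, against 34.4%) and 6 were not called. Taken in either direction, 66.7% and 60.0% of members were called against 65.7% and 59.4% of all genes, so the share called was near that of all genes while lower calls made up more of it. The median log2 fold change of the members was, in that order, -0.42 and -0.35, and that of all genes tested -0.03 and 0.06.

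The changes were mostly small. At the fold change above 2 that the study's methods also ask for, MT-ATP8 under Si-KDM4C#1 was the only member called, while 4.83% of genes fell and 4.04% rose by that rule. Under Si-KDM4C#2 no member passed it, against 2.30% of genes that fell and 2.60% that rose. The members did not move as a block, their log2 fold changes spanning 1.48 under Si-KDM4C#1 and 1.12 under Si-KDM4C#2. Library by library, 9 members were lower in all 3 Si-KDM4C#1 libraries than in any Scramble library (36.0% of all genes tested were) and 1 was higher (33.5%). Under Si-KDM4C#2 it was 9 (27.9%) and 1 (37.3%). Both comparisons share the Scramble libraries, and Scramble replicate 1 had the lowest mitochondrial share of its group.

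The adjusted p-values, though not the fold changes, depended on which genes entered the fit, since limma draws the spread of each gene towards a trend over all of them. With all 32906 listed genes kept, 4 members were called lower under Si-KDM4C#1 (MT-ATP8, MT-ND4L, MT-ND5 and MT-ND6) and 0 higher, with 5 lower and 0 higher at an unadjusted p below 0.05. Under Si-KDM4C#2, limma then called MT-ND3 higher and 0 members lower, with 3 lower at an unadjusted p below 0.05. Over all genes of that fit, 5287 were called lower and 4423 higher under Si-KDM4C#1, and 3658 lower and 4766 higher under Si-KDM4C#2. The counts also changed under quantile normalization, which gives each library the same set of values and so fixes the summed level of the top genes, where these members lie. A member's value then depends on its rank in the library alone. Its p-value there reflects the spread of ranks and not of levels. The other scalings set libraries to equal summed nuclear FPKM (equal nuclear totals) or to the median ratio over genes, adjusted for GC content, or fitted fragments recovered from the FPKM with voom, limma's method for counts.

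**Figure D3:**
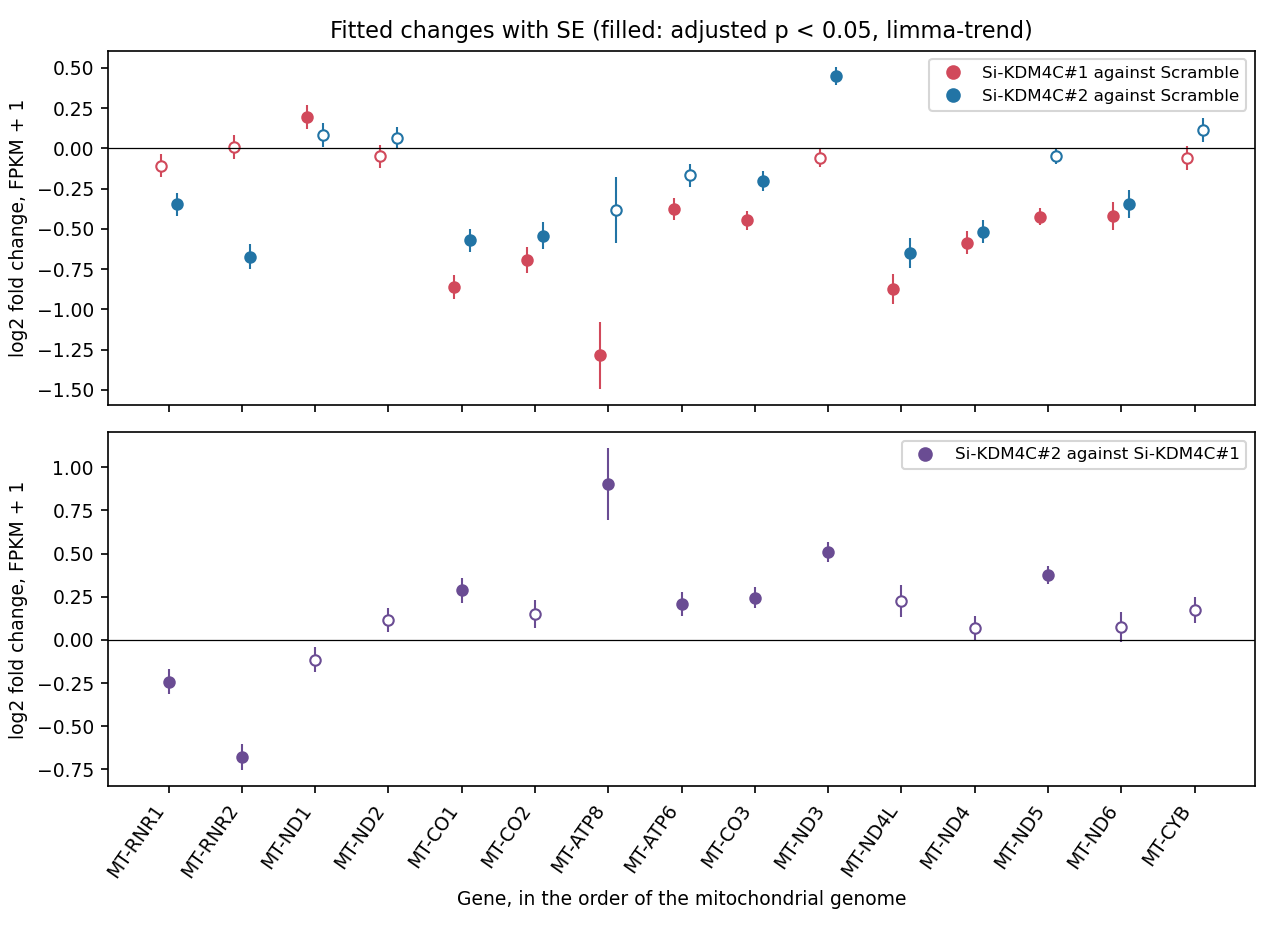
Fitted log2 fold change of FPKM + 1 with its SE for each gene in genome order, for both knockdowns against Scramble (upper panel) and for Si-KDM4C#2 against Si-KDM4C#1 (lower panel), where filled points have an adjusted p below 0.05. MT-CO1, MT-CO2, MT-CO3, MT-ND4L and MT-ND4 lie below 0 with both siRNAs, and MT-RNR2 lies at 0.01 under Si-KDM4C#1 and at -0.67 under Si-KDM4C#2.

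On deposited FPKM, complex IV, cytochrome c oxidase, was the complex whose mitochondrial subunits were all called lower with both siRNAs. Of all genes tested, 33.9% fell under Si-KDM4C#1 and 25.0% under Si-KDM4C#2. With voom both complex V genes were called lower with both siRNAs too, and with no filter no complex IV gene was called. MT-CO1, the catalytic subunit that binds heme and copper, stood at 11623, 13319 and 14046 FPKM in Scramble, 7070.1, 6962 and 7388 FPKM under Si-KDM4C#1 and 8213, 8838 and 9122 FPKM under Si-KDM4C#2. The 3 groups did not overlap, Scramble being highest and Si-KDM4C#1 lowest. Its log2 fold change was -0.86 ± 0.07 (SE, adjusted p = 4.76e-06) under Si-KDM4C#1 and -0.57 ± 0.07 (SE, adjusted p = 0.000111) under Si-KDM4C#2, 1.81-fold and 1.49-fold lower. MT-CO2, which takes electrons from cytochrome c, stood at 11343, 13334 and 13900.1 FPKM in Scramble, 7723, 7560.0 and 8535 FPKM under Si-KDM4C#1 and 8406, 8734 and 9283 FPKM under Si-KDM4C#2. Both knockdowns lay wholly below Scramble and overlapped each other. The fitted log2 fold change was -0.69 ± 0.08 (SE, adjusted p = 5.01e-05) and -0.54 ± 0.08 (SE, adjusted p = 0.000350). MT-CO3, a further core subunit, stood at 7845, 8403 and 8223 FPKM in Scramble, 5763, 5835 and 6349.6 FPKM under Si-KDM4C#1 and 6845, 6815 and 7625 FPKM under Si-KDM4C#2. Its change on the log2 scale was closer to 0, at -0.45 ± 0.06 (SE, adjusted p = 0.000117) and -0.20 ± 0.06 (SE, adjusted p = 0.0161), and the second call was lost (adjusted p = 0.0572 to 0.0683) when Scramble replicate 2, Si-KDM4C#2 replicate 1 or Si-KDM4C#2 replicate 2 was left out. Under quantile normalization alone of the 6 scalings, MT-CO3 turned to 0.11 and 0.21 (the second called higher) and MT-CO2 under Si-KDM4C#2 to 0.08.

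Complex I, NADH dehydrogenase, has 7 mitochondrial subunits, and they split. Under Si-KDM4C#1, 4 fell (MT-ND4L, MT-ND4, MT-ND5 and MT-ND6), MT-ND1 rose and 2 were not called. Under Si-KDM4C#2, 3 fell (MT-ND4L, MT-ND4 and MT-ND6), MT-ND3 rose and 3 were not called. MT-ND4L, a short membrane subunit, stood at 9397, 11105 and 11381 FPKM in Scramble, 6098, 5417 and 5840.1 FPKM under Si-KDM4C#1 and 6137, 6637 and 7547 FPKM under Si-KDM4C#2. The change against Scramble, in log2, was -0.87 ± 0.09 (SE, adjusted p = 2.48e-05) and -0.65 ± 0.09 (SE, adjusted p = 0.000251), 1.83-fold and 1.57-fold lower. MT-ND4, its partner on a shared messenger RNA and one of the proton-pumping subunits, stood at 8230.2, 9374 and 9732 FPKM in Scramble, 5966, 5826 and 6376 FPKM under Si-KDM4C#1 and 6030.3, 6369 and 6676 FPKM under Si-KDM4C#2. It differed from Scramble on the log2 scale by -0.59 ± 0.07 (SE, adjusted p = 5.35e-05) and -0.52 ± 0.07 (SE, adjusted p = 0.000173), with both knockdowns below every Scramble library. Under quantile normalization MT-ND4 turned to 0.03 under Si-KDM4C#1.

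MT-ND5, the largest pumping subunit, fell under Si-KDM4C#1. It stood at 2277, 2554 and 2633 FPKM in Scramble, 1876, 1839 and 1830.2 FPKM under Si-KDM4C#1 and 2399, 2392 and 2416 FPKM under Si-KDM4C#2. The Si-KDM4C#1 libraries were lowest and hardly varied, and the Si-KDM4C#2 libraries lay among those of Scramble. The log2 fold change was -0.43 ± 0.05 (SE, adjusted p = 6.25e-05) under Si-KDM4C#1 and -0.05 ± 0.05 (SE, adjusted p = 0.454) under Si-KDM4C#2, and the direct difference between the siRNAs was 0.38 ± 0.05 (SE, adjusted p = 0.000164). Under Si-KDM4C#2 it was called lower with voom (-0.11, adjusted p = 0.0291) and without Scramble replicate 1 (-0.11, adjusted p = 0.0218). MT-ND6, the light-strand subunit, stood at 1734, 1934 and 2278 FPKM in Scramble, 1391, 1557 and 1473 FPKM under Si-KDM4C#1 and 1533, 1615 and 1502 FPKM under Si-KDM4C#2. Both knockdowns lay below Scramble, whose replicate 3 was the highest of the 9. The log2 fold change was -0.42 ± 0.09 (SE, adjusted p = 0.00222) under Si-KDM4C#1 and -0.35 ± 0.09 (SE, adjusted p = 0.00774) under Si-KDM4C#2.

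The remaining complex I genes were not called lower with either siRNA on deposited FPKM. MT-ND3, a small subunit near the quinone site, stood at 1769, 1859.7 and 1717 FPKM in Scramble, 1597, 1701 and 1836 FPKM under Si-KDM4C#1 and 2444, 2347 and 2508 FPKM under Si-KDM4C#2. All Si-KDM4C#2 libraries were above all others, and the other groups overlapped. Its log2 fold change was 0.45 ± 0.06 (SE, adjusted p = 9.85e-05) under Si-KDM4C#2 and -0.06 ± 0.06 (SE, adjusted p = 0.374) under Si-KDM4C#1, and the difference between the siRNAs was 0.51 ± 0.06 (SE, adjusted p = 3.54e-05). Under Si-KDM4C#1 its direction hung on the scaling, MT-ND3 being called lower with equal nuclear totals (-0.17, adjusted p = 0.0231) and higher with GC adjustment (0.17, adjusted p = 0.0455). MT-ND1, which lines the quinone channel, stood at 1522, 1705 and 1798 FPKM in Scramble, 1850.2, 1812 and 2095 FPKM under Si-KDM4C#1 and 1735, 1715 and 1861 FPKM under Si-KDM4C#2. The Si-KDM4C#1 libraries were just above Scramble. The log2 fold change was 0.20 ± 0.07 (SE, adjusted p = 0.0399), and the call was lost (adjusted p = 0.0535 to 0.141) without Scramble replicate 1 or 2, Si-KDM4C#1 replicate 3 or Si-KDM4C#2 replicate 1 or 2. Under Si-KDM4C#2 the value was 0.08 ± 0.07 (SE, adjusted p = 0.364). MT-ND2, another pumping subunit, stood at 2516, 2798 and 2897 FPKM in Scramble, 2461, 2567 and 2908 FPKM under Si-KDM4C#1 and 2899, 2804 and 2862 FPKM under Si-KDM4C#2, the 3 groups overlapping. Its log2 fold changes were -0.05 and 0.06, with adjusted p of 0.548 and 0.460.

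Complex III has a single mitochondrial gene. MT-CYB, cytochrome b, stood at 1880.2, 2232 and 2285 FPKM in Scramble, 1989, 1948 and 2189.6 FPKM under Si-KDM4C#1 and 2358, 2294 and 2248 FPKM under Si-KDM4C#2. Neither knockdown was separate from Scramble, and the log2 fold changes were -0.06 ± 0.08 (SE, adjusted p = 0.511) and 0.11 ± 0.08 (SE, adjusted p = 0.217). The sign of the first turned under median-ratio scaling, GC adjustment, quantile normalization (0.11, called higher) and voom, and it was called lower without Scramble replicate 1 (-0.15, adjusted p = 0.0401).

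Complex V, ATP synthase, has both of its mitochondrial subunits in the membrane part. MT-ATP8, which helps to anchor the peripheral stalk, stood at 160.0, 208 and 215 FPKM in Scramble, 54.0, 95.3 and 93.5 FPKM under Si-KDM4C#1 and 133, 167 and 145 FPKM under Si-KDM4C#2. The Si-KDM4C#1 libraries were all below the others, and replicate 1 of that group was well under its partners. Its log2 fold change under Si-KDM4C#1 was -1.29 ± 0.21 (SE, adjusted p = 0.000385), 2.44-fold lower. Under Si-KDM4C#2 it was -0.38 ± 0.21 (SE, adjusted p = 0.138), with libraries that overlapped Scramble. Without Si-KDM4C#1 replicate 1 the first was -1.02 and the second passed at an adjusted p of 0.0219. The second was also called lower with the libraries of that comparison alone (adjusted p = 0.0336) and with voom (-0.45, adjusted p = 0.00138). MT-ATP6, the channel through which protons pass, stood at 5267, 5833 and 5983 FPKM in Scramble, 3992, 4529.9 and 4637 FPKM under Si-KDM4C#1 and 5258, 4944 and 4981 FPKM under Si-KDM4C#2. Both knockdowns lay below every Scramble library. The log2 fold change was -0.38 ± 0.07 (SE, adjusted p = 0.000895) under Si-KDM4C#1 and -0.17 ± 0.07 (SE, adjusted p = 0.0601) under Si-KDM4C#2, the second not called. The latter was called lower with equal nuclear totals (-0.25, adjusted p = 0.0113), voom (-0.23, adjusted p = 0.000169), the libraries of that comparison alone (adjusted p = 0.0417) and without Scramble replicate 1 (adjusted p = 0.0188) or Si-KDM4C#1 replicate 1 (adjusted p = 0.0295). The ratio of MT-ATP6 to MT-ATP8, which lie on 1 messenger RNA, was 29.6 ± 2.88 in Scramble, 57.0 ± 14.7 under Si-KDM4C#1 and 34.5 ± 5.00 under Si-KDM4C#2. How fragments over their 46 shared bases were counted is not given, so MT-ATP8 values may not follow the level of that messenger RNA. The part of counting in this ratio and in the change of MT-ATP8 was not tested.

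The ribosomal RNAs separated the siRNAs. MT-RNR1, the RNA of the small ribosomal subunit, stood at 2716, 3155 and 2899 FPKM in Scramble, 2615, 2547 and 2985 FPKM under Si-KDM4C#1 and 2322, 2233 and 2319.7 FPKM under Si-KDM4C#2. It fell under Si-KDM4C#2 (-0.35 ± 0.07 SE, adjusted p = 0.00205) and was not called under Si-KDM4C#1 (-0.11 ± 0.07 SE, adjusted p = 0.208), except without Si-KDM4C#1 replicate 3 (-0.18, adjusted p = 0.0370) and with equal nuclear totals. MT-RNR2, that of the large subunit, stood at 11001, 12586 and 13201 FPKM in Scramble, 12511, 11543 and 12857 FPKM under Si-KDM4C#1 and 7224, 7889.7 and 7929 FPKM under Si-KDM4C#2. The Si-KDM4C#2 libraries were far below the other 6, which overlapped. The fitted log2 fold change was -0.67 ± 0.08 (SE, adjusted p = 5.08e-05) under Si-KDM4C#2 and 0.01 ± 0.08 (SE, adjusted p = 0.938) under Si-KDM4C#1. The sign of the latter turned to -0.10 when libraries were scaled to equal nuclear totals, and without Scramble replicate 1, Si-KDM4C#1 replicate 1 or Si-KDM4C#1 replicate 3. Under quantile normalization MT-RNR2 was at 0.36 under Si-KDM4C#1 and at 0.00 under Si-KDM4C#2.

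Set directly against each other, the siRNAs differed on 8 of the 15 members. Taken in either direction 53.3% of members were called, against 62.4% of all genes tested. Relative to Si-KDM4C#1, 6 were higher under Si-KDM4C#2 (40.0%, against 35.9% of all genes tested) and 2 were lower (13.3%, against 26.5%). The median log2 difference was 0.17 for the members and 0.08 for all genes tested. Higher under Si-KDM4C#2 were MT-ATP8 (0.90 ± 0.21 SE, adjusted p = 0.00377), MT-ND3, MT-ND5, MT-CO1 (0.29 ± 0.07 SE, adjusted p = 0.00662), MT-CO3 (0.25 ± 0.06 SE, adjusted p = 0.00563) and MT-ATP6 (0.21 ± 0.07 SE, adjusted p = 0.0242). Lower were MT-RNR2 (-0.68 ± 0.08 SE, adjusted p = 3.86e-05) and MT-RNR1 (-0.24 ± 0.07 SE, adjusted p = 0.0136). Thus every messenger RNA called in this comparison on deposited FPKM was higher and both ribosomal RNAs were lower. Under quantile normalization MT-ND4 (-0.15, adjusted p = 0.00295) and MT-CYB (-0.13, adjusted p = 0.00197) were called lower. With voom MT-ND1 was called lower (-0.24, adjusted p = 0.000286). Libraries did not overlap for 8 members that were higher (40.0% of all genes tested) and for 2 that were lower (29.3%). The call of MT-ATP6 held under 2 of the 6 scalings, deposited FPKM and equal nuclear totals, and was lost without Si-KDM4C#1 replicate 1 (adjusted p = 0.0794) or Si-KDM4C#2 replicate 1 (0.0863). At a fold change above 2, 0 members were called by limma or voom, against 4.41% of genes higher and 2.49% lower, and 1 was higher (MT-ATP8) without Si-KDM4C#1 replicate 2 or 3. Under median-ratio scaling 3 members were higher and 3 lower, MT-CO1, MT-CO3 and MT-ATP6 losing their calls and MT-ND1 gaining one, while over all genes tested the lower calls went from 42.5% to 54.3% of all calls. The remaining level of KDM4C differed too, being lower under Si-KDM4C#2, and off-target effects of either siRNA were not tested.

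The make-up of the mitochondrial RNA, each gene as a percent of the summed FPKM of the 15, does not depend on a scaling of the library by 1 factor. MT-RNR2 was 14.0% ± 0.156 in Scramble (SD, n = 3), 19.2% ± 0.599 under Si-KDM4C#1 and 11.6% ± 0.358 under Si-KDM4C#2. MT-CO1 took 14.8% ± 0.220, 11.2% ± 0.169 and 13.2% ± 0.297, and MT-ND4L took 12.1% ± 0.231, 9.04% ± 0.560 and 10.2% ± 0.675, so both were lower in each knockdown. MT-ND1 was higher in each, going from 1.91% ± 0.0229 to 2.99% ± 0.0990 and 2.67% ± 0.0569, as did MT-CYB, from 2.43% ± 0.0520 to 3.19% ± 0.0528 and 3.48% ± 0.215. MT-ND3 went from 2.04% ± 0.195 to 2.67% ± 0.118 and 3.67% ± 0.133. MT-ND6 varied less than its spread, at 2.26% ± 0.164, 2.31% ± 0.188 and 2.34% ± 0.147. The shares of the 15 make up a whole, so one can be higher because others are lower. On deposited FPKM MT-CYB was called with neither siRNA, and MT-ND1 was not called under Si-KDM4C#2. These shares were not tested.

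**Figure D4:**
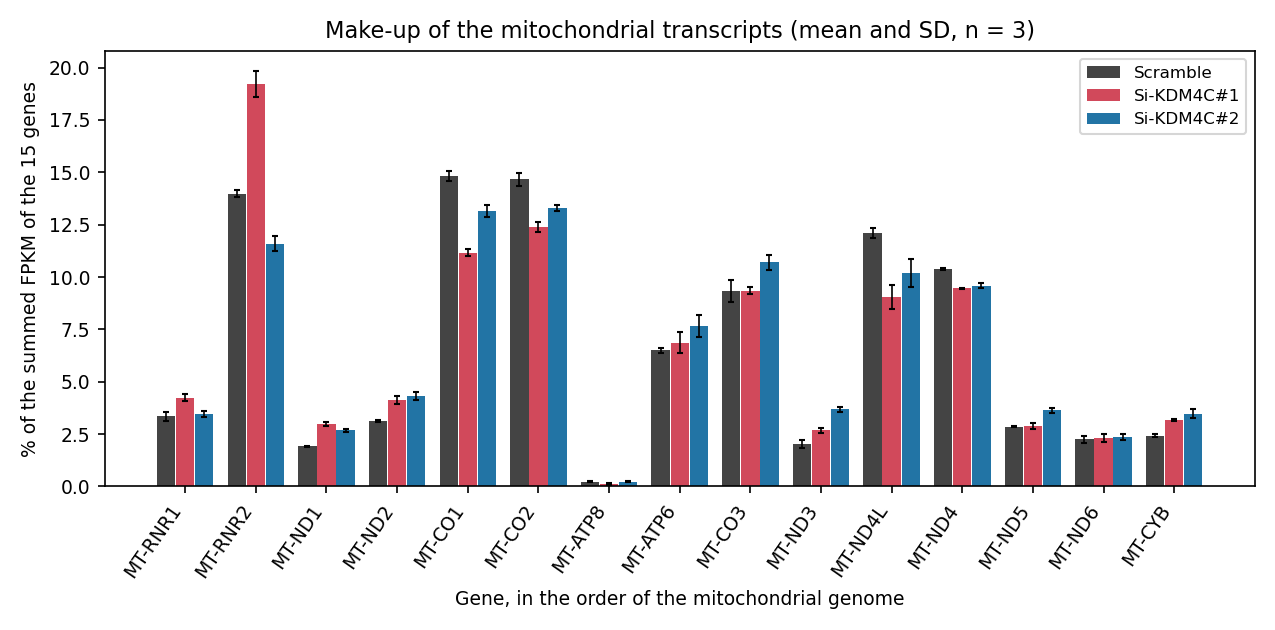
Percent of the summed FPKM of the 15 genes that each gene held, with bars for group means and whiskers for SD (n = 3), in genome order. MT-RNR2 holds 14.0% in Scramble, 19.2% under Si-KDM4C#1 and 11.6% under Si-KDM4C#2, while MT-CO1 and MT-ND4L are lower in both.

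Ratios between genes were taken within each library, all but the one with MT-ND6 being between genes of the same strand. FPKM of MT-CO1 to MT-ND1 was 7.75 ± 0.102 in Scramble, 3.73 ± 0.176 under Si-KDM4C#1 and 4.93 ± 0.210 under Si-KDM4C#2. The 3 groups did not overlap, and the widest range within a group was 4.73 to 5.15. MT-CO1 to MT-ND2, its nearest upstream messenger RNA, was 4.74 ± 0.115 in Scramble, 2.71 ± 0.166 under Si-KDM4C#1 and 3.06 ± 0.195 under Si-KDM4C#2. MT-ND1 to MT-RNR2, the genes to either side of the transfer RNA that holds the binding site of the termination factor MTERF1, was 0.137 ± 0.00152 in Scramble, 0.156 ± 0.00758 under Si-KDM4C#1 and 0.231 ± 0.0119 under Si-KDM4C#2. The 3 groups did not overlap, and the ratio was highest under Si-KDM4C#2, where MT-RNR2 fell and MT-ND1 was not called. MTERF1, read because its site lies there, stood at 2.47, 2.14 and 2.18 FPKM in Scramble, Si-KDM4C#1 and Si-KDM4C#2. It was called with neither siRNA (log2 fold change -0.14 and -0.12, adjusted p = 0.231 and 0.308 by limma). Its part in the ratio was not tested. MT-ND3 to MT-CO3 was 0.219 ± 0.00866 in Scramble, 0.286 ± 0.00770 under Si-KDM4C#1 and 0.343 ± 0.0141 under Si-KDM4C#2. MT-CYB to MT-ND5 was 0.856 ± 0.0262 in Scramble, 1.11 ± 0.0789 under Si-KDM4C#1 and 0.958 ± 0.0262 under Si-KDM4C#2. In neither did the groups overlap. The ratio of MT-ND6 to MT-ND5, which lie on opposite strands, was 0.795 ± 0.0612 in Scramble, 0.798 ± 0.0531 under Si-KDM4C#1 and 0.645 ± 0.0272 under Si-KDM4C#2, the first 2 groups overlapping. Whether counting used strand is not given, so MT-ND6 values may hold antisense RNA of the heavy strand. MT-CO3 to MT-ATP6, genes on adjoining parts of the precursor, was 1.43 ± 0.0577 in Scramble, 1.37 ± 0.0779 under Si-KDM4C#1 and 1.40 ± 0.117 under Si-KDM4C#2, and the groups overlapped. MT-ND4 to MT-ND4L, on a shared messenger RNA, was 0.858 ± 0.0161 in Scramble, 1.05 ± 0.0614 under Si-KDM4C#1 and 0.942 ± 0.0512 under Si-KDM4C#2. Both knockdowns lay above every Scramble library and overlapped each other. Values of genes on 1 messenger RNA thus moved apart, and the part of counting in this was not tested.

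Some properties that played no part in choosing the members went with the size of change, as a description over few genes. All 7 genes with a complete stop fell under Si-KDM4C#1 (median log2 fold change -0.69). Of the 6 whose stop the poly(A) tail completes, 2 fell (MT-CO3 and MT-ND4) and 1 rose (MT-ND1), with a median of -0.06. Under Si-KDM4C#2 it was 4 of 7 that fell (median -0.38) against 2 of 6 that fell and 1 that rose (median 0.07). Of all genes tested, 33.9% fell and 31.7% rose under Si-KDM4C#1, and 25.0% fell and 34.4% rose under Si-KDM4C#2. These are classes of genes and not of separate messenger RNAs. MT-ATP8 and MT-ATP6 share a messenger RNA, and so do MT-ND4L and MT-ND4, which stand in different classes. The 6 messenger RNAs highest in Scramble (MT-CO1, MT-CO2, MT-ND4L, MT-ND4, MT-CO3 and MT-ATP6) all fell under Si-KDM4C#1, and 5 did under Si-KDM4C#2. Of the 7 others, 3 fell and 1 rose under Si-KDM4C#1, and 1 fell and 1 rose under Si-KDM4C#2. The 6 were picked by their level in the Scramble libraries, against which the falls were counted. These counts therefore cannot test a link between level and change. Across the 15 genes the correlation of log2 fold change with log2 Scramble FPKM was r = -0.48 (Spearman's rho -0.72) under Si-KDM4C#2 and r = 0.06 (rho -0.31) under Si-KDM4C#1. Both axes share the Scramble libraries. Position, length and GC content gave r between -0.29 and 0.30 over the 15 genes. The genes share libraries and precursors and are not independent replicates.

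Copies of mitochondrial genes in nuclear chromosomes can share reads with the members. There were 102 such copies listed, 6 of them with a mean of at least 1 FPKM, and the 102 together held 1.30% as much FPKM as the members. The highest was MTATP6P1 (chr1:633696-634376, a copy of MT-ATP6 on a stretch of chromosome 1 that resembles mitochondrial DNA closely), at 737 ± 176, 515 ± 6.10 and 587 ± 41.9 FPKM in Scramble, Si-KDM4C#1 and Si-KDM4C#2. Its change on the log2 scale was -0.49 (adjusted p = 0.0169) and -0.30 (adjusted p = 0.115). MTND2P28 (chr1:629640-630683) stood at 227 ± 16.7, 241 ± 13.9 and 272 ± 12.1 FPKM and MTCO1P12 (chr1:631074-632616) at 74.3 ± 6.07, 58.6 ± 5.42 and 73.7 ± 4.06 FPKM. MTND4P12 and MTRNR2L12 followed at 3.35 ± 0.0166, 1.62 ± 0.473 and 2.21 ± 0.149 FPKM and 1.64 ± 0.450, 1.62 ± 0.303 and 1.03 ± 0.188 FPKM. In log2, MTND2P28 changed by 0.08 (adjusted p = 0.251) and 0.26 (adjusted p = 0.00505), and MTCO1P12 by -0.34 (adjusted p = 0.00384) and -0.01 (adjusted p = 0.930). MTND4P12 changed by -0.75 (adjusted p = 0.000287) and -0.44 (adjusted p = 0.00863), and MTRNR2L12 by -0.0015 (adjusted p = 0.994) and -0.37 (adjusted p = 0.0506). Calls of a copy and its member thus did not always match. How multiply mapped fragments were assigned is not given in the sources used here, so the division of reads between each copy and its member is uncertain.

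Since the members make up a large part of all FPKM, the scaling of a library bears on them directly. When libraries were scaled to equal nuclear totals, the median log2 fold change of all genes tested moved to -0.12 under Si-KDM4C#1, and the member counts became 11 lower and 0 higher under Si-KDM4C#1 and 9 lower and 1 higher under Si-KDM4C#2. Over all 14363 genes tested, 5708 were lower and 3829 higher under Si-KDM4C#1, and 4278 lower and 4182 higher under Si-KDM4C#2. The members gained were MT-ND3 and MT-RNR1 (-0.21, adjusted p = 0.0232) under Si-KDM4C#1 and MT-ATP6 under Si-KDM4C#2, while MT-ND1 lost its call under Si-KDM4C#1. Under median-ratio scaling the member counts were 9 lower and 1 higher, and 8 lower and 1 higher. Over all genes tested it was 4301 lower and 5169 higher, and 3993 lower and 4403 higher. With limma-voom on the recovered fragments the member counts were 9 lower and 1 higher, and 11 lower and 1 higher. Over the 16010 genes of that fit it was 5076 lower and 5193 higher, and 4546 lower and 4661 higher. Under quantile normalization 5 members were lower and 3 higher under Si-KDM4C#1, and 3 lower and 3 higher under Si-KDM4C#2. Over all 14363 genes it was 4592 lower and 4727 higher, and 4149 lower and 4402 higher. Members were thus not clearly called lower more often than all genes under that scaling. Under all 6 scalings 5 members were called lower under Si-KDM4C#1, namely MT-ATP8, MT-CO1, MT-ND4L, MT-ND5 and MT-ND6. For Si-KDM4C#2 it was 3 lower (MT-RNR1, MT-ND4 and MT-ND6) and 1 higher (MT-ND3). Between the siRNAs MT-ATP8, MT-ND3 and MT-ND5 were higher and both ribosomal RNAs lower in each of them.

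**Figure D5:**
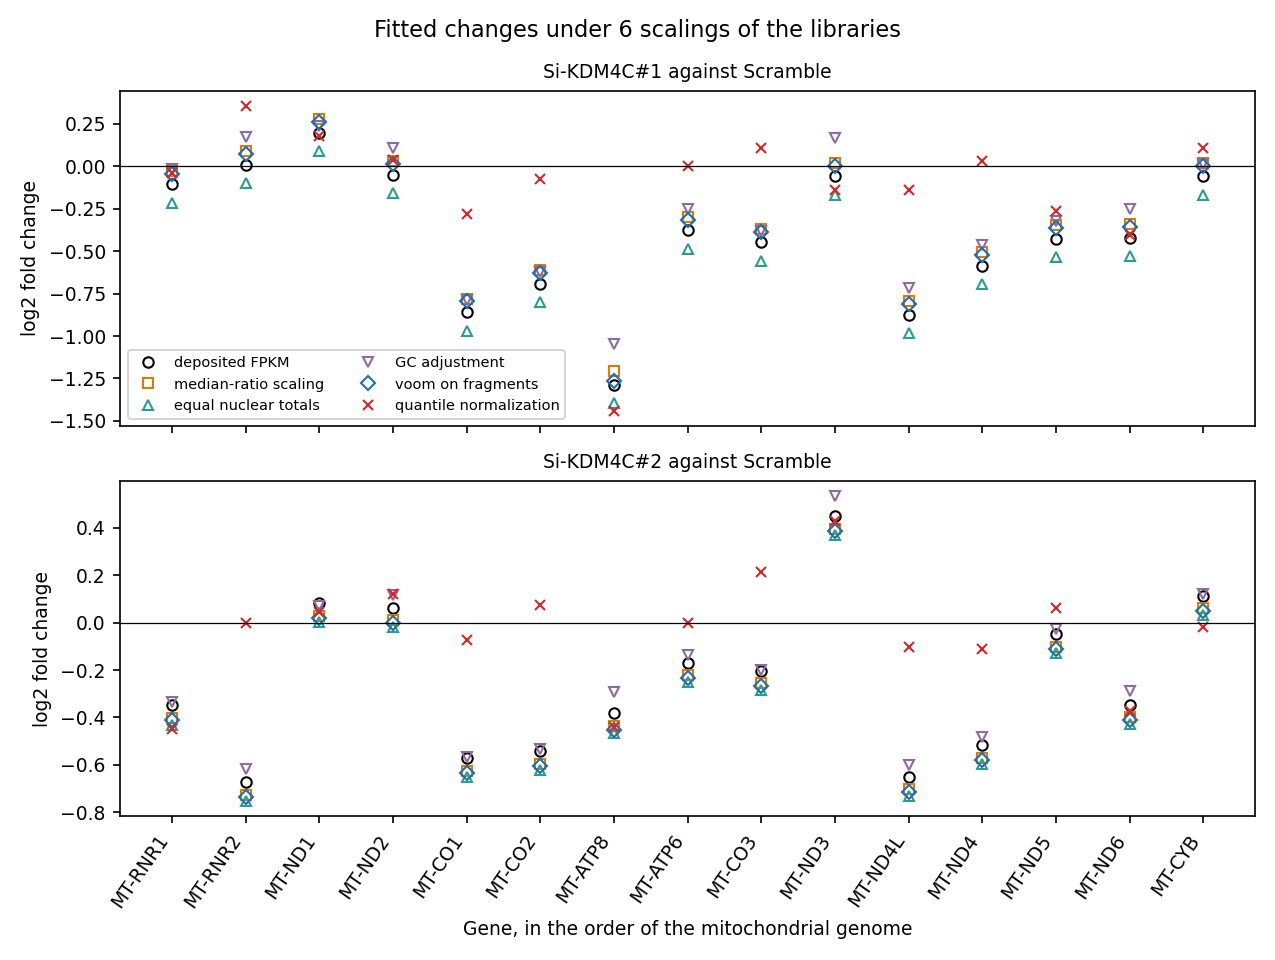
Fitted log2 fold change of each gene in genome order under 6 scalings of the libraries, for Si-KDM4C#1 (upper panel) and Si-KDM4C#2 (lower panel) against Scramble. Apart from quantile normalization and GC adjustment, the scalings move all genes nearly in parallel. MT-CO3 under quantile normalization is at 0.11 and 0.21. With GC adjustment under Si-KDM4C#1, MT-ND3 goes from -0.06 to 0.17 and MT-CYB from -0.06 to 0.01.

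Nuclear genes with known roles in mitochondrial gene expression were read from the same fit, in which 31.7% of all genes tested rose and 33.9% fell under Si-KDM4C#1, and 34.4% rose and 25.0% fell under Si-KDM4C#2. Of 10 transcription genes, all tested, 3 rose and 1 fell under Si-KDM4C#1, and 4 rose and 2 fell under Si-KDM4C#2. POLRMT, the polymerase, had 13.4 ± 1.51, 22.1 ± 0.460 and 18.8 ± 0.498 FPKM in Scramble, Si-KDM4C#1 and Si-KDM4C#2, and rose with both (log2 fold change 0.68 and 0.46, adjusted p = 1.24e-05 and 0.000248). TFB2M, which opens the promoter, rose by 1.37 ± 0.06 (SE, adjusted p = 6.68e-08) under Si-KDM4C#1 and by 0.17 ± 0.06 (SE, adjusted p = 0.0322) under Si-KDM4C#2. MRPL12, a ribosomal protein that also binds the polymerase, changed by 1.21 and 1.40, both called. TFAM, which packages mitochondrial DNA and bends it at the promoters, had 17.7 ± 0.605, 18.6 ± 0.586 and 11.5 ± 0.667 FPKM in the same order. It fell under Si-KDM4C#2 (-0.59 ± 0.05 SE, adjusted p = 6.96e-06) and was not called under Si-KDM4C#1 (0.06 ± 0.05 SE, adjusted p = 0.273), and the difference between the siRNAs was -0.66 ± 0.05 (SE, adjusted p = 2.73e-06). TFAM was named after its values were seen, being part of the machinery described above. TFB1M, which methylates the small ribosomal RNA, had log2 fold changes of -0.62 ± 0.10 (SE, adjusted p = 0.000330) and -0.02 ± 0.10 (SE, adjusted p = 0.873), so it fell under Si-KDM4C#1. Of 18 DNA replication and maintenance genes, 10 rose and 6 fell under Si-KDM4C#1, and 10 rose and 5 fell under Si-KDM4C#2. TOP1MT, a mitochondrial topoisomerase, changed by 1.91 and 1.62, ATAD3A, an inner membrane ATPase, by 1.35 and 1.13, the helicase TWNK by 1.00 and 0.28, and RRM2B, a nucleotide reductase subunit induced by p53, by -1.77 and -1.60, all called. The medians of the 2 lists were 0.06 and 0.26 under Si-KDM4C#1, and -0.03 and 0.21 under Si-KDM4C#2.

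Of 33 tested genes of mitochondrial RNA processing, stability and decay, 21 rose and 7 fell under Si-KDM4C#1 (median log2 fold change 0.21), and 13 rose and 4 fell under Si-KDM4C#2 (median 0.08). GRSF1, which binds mitochondrial RNA in its processing granules, fell under Si-KDM4C#1 (-1.13 ± 0.05 SE, adjusted p = 5.85e-08) and was at 0.03 ± 0.05 (SE, adjusted p = 0.638) under Si-KDM4C#2. The difference between the siRNAs was itself called, at 1.15 ± 0.05 (SE, adjusted p = 6.31e-08). MRM1, a methylase of the large ribosomal RNA, rose with both (1.29 and 1.11), as did RCC1L (0.98 and 1.07) and the helicase DDX28 (0.79 and 0.86), which take part in assembly of the mitochondrial ribosome. Of 18 transfer RNA modification genes 9 rose and 3 fell, then 8 rose and 5 fell (medians 0.13 and 0.14). The methylase TRMT1 (1.21 and 0.95), the pseudouridine synthase PUS1 (1.12 and 0.59) and the wobble base enzyme GTPBP3 (0.77 and 0.43) rose with both, and the demethylase ALKBH1 was at 0.05 (not called) and -0.76 (called). Of 14 translation factors 6 rose and 4 fell in each comparison (medians 0.06 in both). The release factor MRPL58 rose under Si-KDM4C#1 (1.25 ± 0.06 SE, adjusted p = 1.25e-07) and was at 0.10 ± 0.06 (SE, adjusted p = 0.195) under Si-KDM4C#2. The elongation factor TUFM rose with both (0.60 and 0.20) and so did LETM1, an inner membrane protein (0.99 and 0.68), while the release factor MTRF1L fell with both (-0.28 and -0.83).

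The nuclear subunits of the same complexes did not show the lower direction of complex IV's mitochondrial genes as a group. Of 11 tested nuclear complex IV genes, 5 rose and 2 fell with each siRNA (median log2 fold change 0.09 in both). The falling pair, COX7B (-1.30 and -0.28) and COX7C (-0.71 and -0.12), are small accessory subunits, and COX8A (1.28 and 0.56) and COX6A1 (1.01 and 0.74) rose. Of 36 complex I genes 15 rose and 9 fell, then 16 rose and 6 fell (medians 0.05 and 0.14). NDUFS6 rose with both (1.02 and 0.70), NDUFV2 fell with both (-1.16 and -0.92), and NDUFB1 and NDUFB2 fell under Si-KDM4C#1 (-1.19 and -1.15). Under Si-KDM4C#2 NDUFB2 rose (0.22) and NDUFB1 was at 0.17, not called. Of 9 complex III genes 8 rose and 1 fell under Si-KDM4C#1, and 5 rose and 0 fell under Si-KDM4C#2 by limma (medians 0.31 and 0.14). At an unadjusted p below 0.05 it was 6 and 0, and by voom 3 and 0. The one that fell was UQCRB, at 19.1 ± 0.663, 1.39 ± 0.0688 and 18.5 ± 0.115 FPKM in Scramble, Si-KDM4C#1 and Si-KDM4C#2, a log2 fold change of -3.07 ± 0.04 (SE, adjusted p = 5.59e-10) under Si-KDM4C#1 and -0.04 ± 0.04 (SE, adjusted p = 0.432) under Si-KDM4C#2. CYC1, cytochrome c1, rose with both (0.69 and 0.58), UQCR10 did too (0.31 and 0.51), and UQCRH was at 0.52 (called) and -0.02 (not called). Of 16 complex V genes 4 rose and 5 fell, then 9 rose and 0 fell by limma (medians 0.02 and 0.22). Under Si-KDM4C#2 it was 10 and 0 at an unadjusted p below 0.05, and 8 and 1 by voom. ATP5F1B, the catalytic beta subunit, fell under Si-KDM4C#1 (-0.97 ± 0.03 SE, adjusted p = 1.89e-08) and was at 0.00 ± 0.03 (SE, adjusted p = 0.956) under Si-KDM4C#2. ATP5F1D and ATP5MF rose with both (1.04 and 0.64, 0.29 and 0.75), and ATP5ME was at 0.03 (not called) and 0.97 (called).

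Of 10 regulators of mitochondrial biogenesis, 8 rose and 1 fell under Si-KDM4C#1 (median log2 fold change 0.36), and 6 rose and 0 fell under Si-KDM4C#2 by limma (median 0.34). Under Si-KDM4C#2 it was 6 and 1 at an unadjusted p below 0.05, and 6 and 2 by voom. The transcription factor MYC rose by 1.52 ± 0.05 (SE, adjusted p = 1.88e-08) and 0.55 ± 0.05 (SE, adjusted p = 1.43e-05), the nuclear receptor ESRRA by 0.87 and 1.12, the coactivator PPRC1 by 0.64 and 0.56, and GABPB1, a subunit of the factor GABP, by 0.38 and 0.51, all called. None of these lists was tested as a set. Of 4 housekeeping genes read for comparison, ACTB and TUBA1B rose with both siRNAs (0.73 and 0.81, 0.72 and 0.58), GAPDH fell with both (-0.41 and -0.62), and EEF1A1 was at 0.04 (not called) and fell under Si-KDM4C#2 (-0.12).

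RNA without a poly(A) tail can enter a library to a degree that differs between libraries, and whether poly(A) RNA was selected is not given in the sources used here. Of 20 nuclear RNAs of that kind, 14 were listed and 6 tested, with 1 higher and 2 lower under Si-KDM4C#1, while there were 0 higher and 1 lower under Si-KDM4C#2 by limma, by voom and at an unadjusted p below 0.05 alike. RN7SL2, the RNA of the signal recognition particle, was at 503 ± 378, 818 ± 334 and 500.1 ± 196 FPKM (SD, n = 3) in Scramble, Si-KDM4C#1 and Si-KDM4C#2, a spread wider than the differences. The histone genes HIST1H2AC (12.8 ± 0.996, 2.44 ± 0.265 and 12.1 ± 1.51 FPKM in Scramble, Si-KDM4C#1 and Si-KDM4C#2) and HIST1H1C (log2 fold change -1.33 and -0.33) fell under Si-KDM4C#1, the latter also under Si-KDM4C#2, and HIST1H4C rose under Si-KDM4C#1 (0.93) and was not called under Si-KDM4C#2 (0.45). The part of such differences in the ribosomal RNA values was not tested.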

How the data were processed

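RNA-seq libraries were prepared from total RNA of cells labelled Huh7 with an NEB Next Ultra RNA Library Prep Kit and sequenced as read pairs on an Illumina NovaSeq. The authors deposited 1 file per library with FPKM for 32906 genes. The submitters' processing notes name FastQC (0.11.5), HISAT2 (2.1.0), StringTie (1.3.3b), DESeq (1.28.0), featureCounts and GRCh38, with no order or role. Poly(A) selection, strand setting, annotation and the handling of multiply mapped reads were not given in the sources used here.

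FPKM were divided by what 1 fragment was worth per library and gene length to recover whole fragments (tolerance 0.05 fragments), which gave 14597503 to 18058557 fragments per library. A level of 3 fragments for a gene of 1 kb was 0.166 to 0.206 FPKM. Between libraries of a group the chi-square over genes was 2.67 to 6.31 times its degrees of freedom, above sampling noise, so none was treated as a repeat deposit of another. Separate cultures and separate preparations of 1 culture cannot be told apart by this. Lengths, coordinates and sequences came from GENCODE release 29 (GRCh38).

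The 3 groups of 3 were compared in 1 fit with limma (3.58.1, R 4.3.3), with a trended prior on log2(FPKM + 1), over the 14363 genes whose mean reached 1 FPKM in some group. P-values were Benjamini-Hochberg adjusted over all of them and called below 0.05, and separately with a fold change above 2, as in the study's methods. Fold changes on this scale understate those of genes near 1 FPKM. Tables and figures used Python (3.11.15). The fit and the recovery were tested on simulated data. Alternatives were quantile, median-ratio and nuclear total scaling, a lowess adjustment for GC content (14343 genes), a pseudocount of 0.1, no filter, the libraries of a comparison alone, voom on recovered fragments (16010 genes), the replicate number as a block and leaving out each library.

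All members were named, with the 5 nuclear copies of highest mean FPKM. Genes of the function lists, which were transcription, DNA replication and maintenance, RNA processing, transfer RNA modification, translation factors, nuclear subunits of complexes I, III, IV and V, biogenesis regulators and RNAs without a poly(A) tail, were named where called with a fold change above 2 or among the 4 largest changes of the list. Hepatocyte markers and 4 housekeeping genes were read as well. Members and lists were chosen with earlier results of these data known.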

Additional observations from a re-analysis of the deposited data

How the results depend on the processing

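Of 27 calls on single mitochondrial genes over the 3 comparisons, 27 were kept with a pseudocount of 0.1, 26 each with GC adjustment, nuclear total scaling, voom and the libraries of a comparison alone, 24 with median-ratio scaling, 16 with quantile normalization and 8 with no filter. In 233 of 243 fits that left out 1 library they were kept. For Si-KDM4C#1 the count of higher genes, 1, became 3 with quantile normalization, 2 with GC adjustment and 0 with nuclear total scaling, no filter or the comparison alone, and ranged from 0 to 1 with a library left out. The 9 lower genes became 5 with quantile normalization and 4 with no filter. For Si-KDM4C#2 the 1 higher gene became 3 and the 8 lower genes 3 with quantile normalization, and lower genes were 0 with no filter. Between the siRNAs the 6 higher genes became 3 with median-ratio scaling or no filter, the 2 lower genes became 4 with quantile normalization and 0 with no filter, and higher genes with a fold change above 2 ranged from 0 to 1 with a library left out. Quantile normalization gives all libraries the same highest values, and no filter brings genes near 0 into the fitted trend. For the rest the cause was not tested. By fragments, the mitochondrial share was 8.98%, 6.76% and 6.68%, and the ribosomal share of it 24.4%, 32.2% and 21.2%, in Scramble, Si-KDM4C#1 and Si-KDM4C#2.

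Signs turned mostly at values near 0. With Si-KDM4C#1, quantile normalization gave MT-ND4 0.034, MT-CYB 0.11, MT-CO3 0.11 and MT-ND2 0.040. Median-ratio scaling gave MT-CYB 0.022, MT-ND3 0.021 and MT-ND2 0.030, GC adjustment 0.011, 0.17 and 0.11, and voom 0.0049, 0.0038 and 0.013. MT-RNR2 was -0.10 with nuclear total scaling and -0.069 to 0.063 with a library left out. With Si-KDM4C#2, quantile normalization gave MT-ND5 0.060, MT-CYB -0.019, MT-CO3 0.21 and MT-CO2 0.075, while MT-ND2 was -0.018 with nuclear total scaling and -0.00039 with voom. Between the siRNAs MT-ND4 was -0.15 with quantile normalization, -0.064 with median-ratio scaling, -0.023 with GC adjustment and -0.057 with voom. MT-CYB was -0.13 with quantile normalization. MT-ND6 was -0.061, -0.034 and -0.053 with median-ratio scaling, GC adjustment and voom, and MT-ND2 -0.021 with median-ratio scaling and -0.013 with voom.

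Replicate numbers were treated as names: deviations of same-numbered libraries correlated at 0.0162 on average (-0.046 to 0.055, 9 pairs). With the number as a block, the counts of higher and lower genes were 1 and 9, 1 and 9, and 7 and 2, the genes gained being MT-ATP8 with Si-KDM4C#2 (adjusted p = 0.0218) and MT-ND4L between the siRNAs (adjusted p = 0.0494). A block with voom, added after seeing the data, gave MT-CYB 0.0053, MT-ND3 0.0054 and MT-ND2 0.014 with Si-KDM4C#1, MT-ND2 -0.0017 with Si-KDM4C#2, and MT-ND4 -0.059, MT-ND6 -0.056 and MT-ND2 -0.016 between the siRNAs.

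Over all genes, higher and lower calls with a fold change above 2 were 580 and 694, 373 and 330, and 634 and 358 in the 3 comparisons, against 900 and 1402, 758 and 685, and 1327 and 610 with a pseudocount of 0.1 and 1199 and 1825, 872 and 1121, and 1549 and 1017 with voom. Lower calls were 54.5%, 46.9% and 36.1% of these, against 66.5% and 57.3% with nuclear total scaling in the first pair of comparisons and 52.3% with median-ratio scaling between the siRNAs. GC adjustment gave 61.2% with Si-KDM4C#2 and 48.3% between the siRNAs. Shares without transfer RNAs were not run, since none is listed. Depth limits MT-ATP8 alone among the members, at 202 to 763 fragments per library.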
